A study of Rattus norvegicus with 9 samples.

Results

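Adamts1, Adamts4, Adamts5 and Adamts9 are 4 ADAMTS protease genes that were described across cells cultured on Matrigel, on collagen I and on uncoated plastic. They were taken by symbol from the rows of the value table that the array's probe table pairs with 1 gene, and each had 1 such row, among 14506 genes tested. The cells were rat pancreatic stellate cells, the fibroblast-like cells of the pancreas that turn into matrix-producing myofibroblasts. They came from male Sprague Dawley rats, were separated on a density gradient and were kept for 72 hours in medium with 10% serum, with the same number of cells in each dish. Whole-transcript arrays were run on 2 cultures on Matrigel, a basement membrane extract, 3 on collagen I, the fibrillar collagen of scar tissue, and 4 on plastic. The labels give no gene alteration or drug for any group and leave unsaid whether a group's cultures stem from different animals, and p-values cover the spread among these arrays, which may be technical. Their titles carry a letter of unstated meaning that recurs across surfaces. It is A and S for Matrigel, A, P and Z for collagen I, and A, P, S and Z for plastic.

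ADAMTS proteases are secreted zinc enzymes with thrombospondin repeats. They are made as inactive precursors, and removal of the propeptide by furin-like convertases switches most of them on. The branch that holds these 4 enzymes is known for cutting large hyaluronan-binding proteoglycans, above all versican and, in cartilage, aggrecan. ADAMTS4 and ADAMTS5 are the best known aggrecanases of joints, ADAMTS1 is needed for ovulation in mice and also binds the growth factor VEGF, and ADAMTS9 is the vertebrate relative of the worm protease GON-1. In fibroblasts and smooth muscle cells the branch takes part in turning over the versican-rich provisional matrix of injured tissue.

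Against plastic, Adamts1 and Adamts5 were lower and Adamts4 was higher on both matrices, whereas Adamts9 passed the test in no comparison. Of the 4 genes, 3 passed between Matrigel and plastic (2 lower and 1 higher), where 10.4% of the 14506 genes passed, 5.85% as lower and 4.52% as higher. Between collagen I and plastic 3 passed (2 lower and 1 higher), where 6.12% of all genes passed, 3.17% as lower and 2.95% as higher. Between Matrigel and collagen I 0 of the 4 passed, against 2.67% of all genes, 1.45% as lower and 1.21% as higher. There limma gave an unadjusted p under 0.05 for 1 of the 4, Adamts4. Over all genes that count was taken only in a fit of these 2 groups, where it was 2094 of 14506. The 4 genes were chosen with earlier results of these data known, so their counts beside these shares are a description and no test. A gene passed when limma's two-sided p, adjusted over all tested genes by the Benjamini-Hochberg method, was under 0.05. The median difference over the 4 genes was -1.23 on Matrigel and -0.88 on collagen I (log2), beside -0.011 and 0.0021 over all tested genes, and it joins genes that moved in opposite directions.

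The 250 bases before the RefSeq start of Adamts1 and of Adamts4 are shown because these genes moved in opposite directions on both matrices. They come from the RefSeq promoter table of build GRCr8, which matched 3 of the 4 members, Adamts1, Adamts4 and Adamts9. The Adamts1 stretch lies at chr11:38427385-38427634 on the minus strand and the Adamts4 stretch at chr13:86202761-86203010 on the plus strand. Capitals mark the motif matches, TATAAA and GGGCGG.
Adamts1: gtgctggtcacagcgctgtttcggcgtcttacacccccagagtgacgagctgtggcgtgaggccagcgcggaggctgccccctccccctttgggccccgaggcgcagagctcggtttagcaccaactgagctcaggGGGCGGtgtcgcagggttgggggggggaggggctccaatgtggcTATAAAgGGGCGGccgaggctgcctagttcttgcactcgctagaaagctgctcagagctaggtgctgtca
Adamts4: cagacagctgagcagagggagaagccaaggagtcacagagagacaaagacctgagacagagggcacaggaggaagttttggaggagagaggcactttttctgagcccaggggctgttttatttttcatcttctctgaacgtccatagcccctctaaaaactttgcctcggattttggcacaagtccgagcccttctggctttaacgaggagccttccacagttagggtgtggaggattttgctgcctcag
In the Adamts1 stretch TATAAA began 70 bases before the start, a match that 12.9% of 33469 promoter stretches of this length hold. Adamts1 also held 2 matches of the GC box GGGCGG, which 30.5% of the stretches hold at least once, and 1 of them lies next to TATAAA without overlapping it. Adamts4 held neither, and Adamts9, whose stretch at chr4:127019877-127020126 on the minus strand is not shown, held 1 GC box. No member stretch held TGANTCA (AP-1, in 6.34% of stretches), GGAATG (TEAD, 12.1%), CACGTG (an E box, 5.59%) or the CArG box of serum response factor (1.5%). All motifs were searched on both strands, and an absent match says only that these letters are not in the window. Of the bases, 65.2% were G or C in the Adamts1 stretch, 51.2% in that of Adamts4 and 71.6% in that of Adamts9, against a median of 51.2% over all stretches. The CG pairs numbered 15, 4 and 21.

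Adamts1 (Entrez gene 79252) had log2 levels of 7.78 and 8.54 on the Matrigel arrays, 8.03, 8.51 and 9.04 on the collagen I arrays, and 10.35, 10.32, 10.22 and 10.12 on the plastic arrays. Every matrix array lay below every plastic array, while the Matrigel and collagen I arrays overlapped. The means were 8.16 ± 0.54 on Matrigel (SD, n = 2), 8.53 ± 0.51 on collagen I (n = 3) and 10.25 ± 0.11 on plastic (n = 4), so the plastic cultures lay closest together. Adamts1 fell by 2.09 ± 0.28 on Matrigel (log2, SE), which is 4.26-fold lower than on plastic (limma adjusted p = 0.00275; 95% interval -2.72 to -1.46). On collagen I it fell by 1.73 ± 0.24, 3.31-fold lower than on plastic (limma adjusted p = 0.00438; interval -2.28 to -1.17).

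Adamts5 (Entrez gene 304135) had log2 levels of 6.54 and 7.61 on Matrigel, 7.74, 7.97 and 6.79 on collagen I, and 10.28, 10.22, 9.80 and 9.49 on plastic. The highest matrix array lay 1.52 below the lowest plastic array, and the 2 matrices overlapped. The means were 7.07 ± 0.76 on Matrigel (SD, n = 2), 7.50 ± 0.63 on collagen I (n = 3) and 9.95 ± 0.37 on plastic (n = 4). Adamts5 was 7.32-fold lower on Matrigel than on plastic, a difference of -2.87 ± 0.40 (log2, SE; limma adjusted p = 0.00342; 95% interval -3.78 to -1.96). On collagen I it was 5.46-fold lower, a difference of -2.45 ± 0.35 (limma adjusted p = 0.00473; interval -3.25 to -1.65). By size of the log2 difference in either direction Adamts5 ranked 39th of the 14506 genes on Matrigel and 38th on collagen I, and Adamts1 ranked 95th and 144th.

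Adamts4 (Entrez gene 66015), the other major aggrecanase, had log2 levels of 7.61 and 7.72 on Matrigel, 8.55, 8.31 and 7.89 on collagen I, and 6.76, 6.30, 6.60 and 6.05 on plastic. Every matrix array lay above every plastic array, and both Matrigel arrays lay below the 3 collagen I arrays by at least 0.17. The means were 7.66 ± 0.08 on Matrigel (SD, n = 2), 8.25 ± 0.33 on collagen I (n = 3) and 6.43 ± 0.32 on plastic (n = 4). Adamts4 rose by 1.82 ± 0.20 on collagen I (log2, SE), 3.54-fold over plastic (limma adjusted p = 0.00122; 95% interval 1.38 to 2.27). On Matrigel it rose by 1.24 ± 0.22, 2.36-fold over plastic (limma adjusted p = 0.0102; interval 0.73 to 1.74). The Matrigel call was lost without Matrigel replicate 1 or Matrigel replicate 2 (limma adjusted p = 0.0598 and 0.0615), at differences of 1.29 and 1.18. Leaving out a Matrigel array, here and for the genes below, leaves 1 array on Matrigel, which is then assumed to vary like the other groups.

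Adamts9 (Entrez gene 312566) had log2 levels of 6.80 and 7.59 on Matrigel, 7.59, 7.90 and 7.12 on collagen I, and 7.68, 7.50, 7.61 and 7.47 on plastic. The levels of all 3 surfaces overlapped. The means were 7.20 ± 0.56 on Matrigel (SD, n = 2), 7.54 ± 0.39 on collagen I (n = 3) and 7.57 ± 0.10 on plastic (n = 4). The difference from plastic was -0.37 ± 0.24 on Matrigel (log2, SE; limma adjusted p = 0.424; 95% interval -0.93 to 0.19). On collagen I it was -0.030 ± 0.22 (limma adjusted p = 0.964; interval -0.52 to 0.46), and its sign depended on the processing, since it was 0.0079 after all arrays were shifted to a common median and 0.18 without collagen replicate 3. Adamts9 did not differ between surfaces beyond the spread of its arrays, but these intervals allow falls on Matrigel of up to 0.93.

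**Figure D1:**
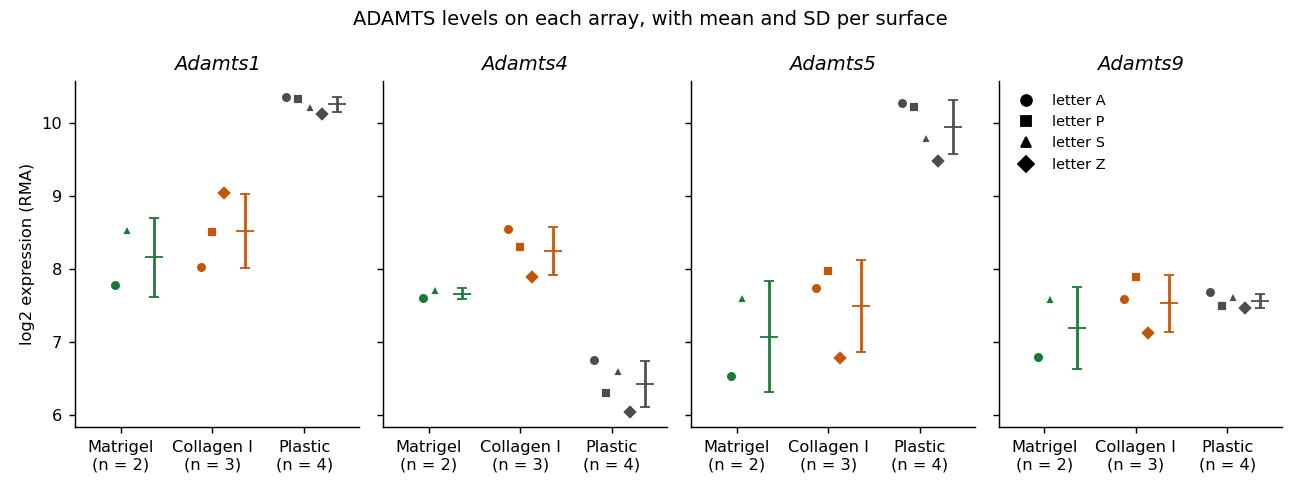
Log2 expression of the 4 genes on each array, by surface, with the mean and SD of each surface beside its points and a marker for each title letter. Adamts1 and Adamts5 on plastic sit at 9.49 or above and on both matrices at 9.04 or below, Adamts4 is lowest on plastic at 6.05 to 6.76, and the 3 surfaces overlap for Adamts9.

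In order of mean level, Adamts1 ran Matrigel, collagen I, plastic, and so did Adamts5 and Adamts9, whereas Adamts4 ran plastic, Matrigel, collagen I. Plastic stood at an end of each order, but for Adamts9 collagen I (7.54) lay nearer to plastic (7.57) than to Matrigel (7.20). Without a block limma called none of the 4 differences between the 2 matrices. Between Matrigel and collagen I, Adamts4 differed by -0.58 ± 0.23 (log2, SE; limma adjusted p = 0.248; 95% interval -1.12 to -0.05). With title letter as a replicate block it differed by -0.90 and passed (limma adjusted p = 0.0493), although only letter A occurs on both matrices. Without the block the differences were -0.37 ± 0.29 for Adamts1 (limma adjusted p = 0.581; interval -1.03 to 0.30), -0.42 ± 0.42 for Adamts5 (adjusted p = 0.673; interval -1.38 to 0.53) and -0.34 ± 0.26 for Adamts9 (adjusted p = 0.561; interval -0.93 to 0.25). All 4 were thus lower on Matrigel than on collagen I in their means, without passing. For Adamts1, Adamts5 and Adamts9 that sign turned without Matrigel replicate 1, at 0.015, 0.11 and 0.057. Groups did not overlap for 3 of the 4 genes between Matrigel and plastic, beside 30.2% of all genes, for 3 between collagen I and plastic, beside 17.2%, and for 1, Adamts4, between Matrigel and collagen I, beside 29.5%.

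**Figure D2:**
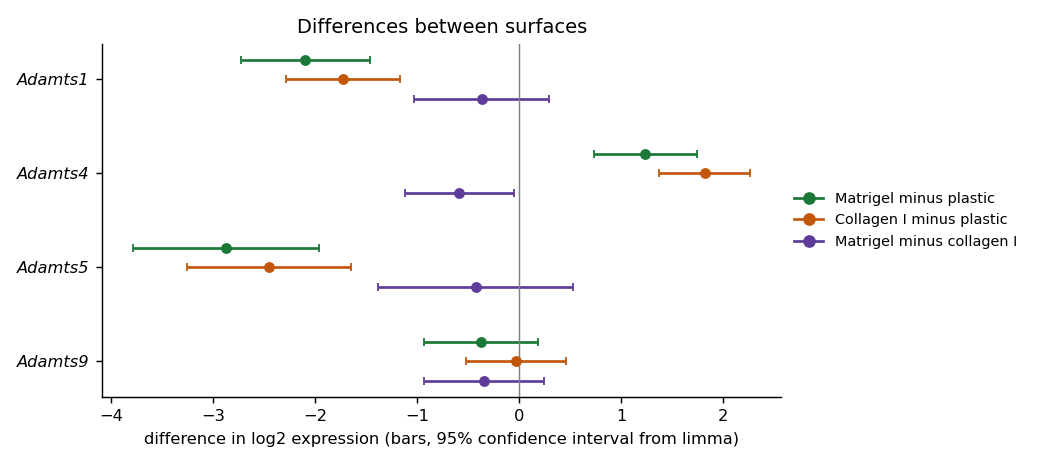
Differences in log2 expression of the 4 genes for the 3 pairs of surfaces, with points for the fitted difference and bars for its 95% interval from limma. The intervals of Adamts1, Adamts5 and Adamts4 against plastic stay clear of 0 on both matrices, and those between the matrices cross 0 except for Adamts4, at -1.12 to -0.05 before adjustment.

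Both comparisons against plastic share the 4 plastic arrays. The labels do not say what the title letters mark, so same-letter differences are given as description and not as paired replicates. The plastic array of letter A serves in both a Matrigel and a collagen I difference. Among arrays of the same title letter, Adamts1 differed between Matrigel and plastic by -2.57 for letter A and by -1.68 for letter S, and between collagen I and plastic by -2.32 for A, -1.81 for P and -1.08 for Z. Adamts5 differed by -3.74 for A and -2.19 for S on Matrigel, and by -2.54, -2.26 and -2.70 for A, P and Z on collagen I. Adamts4 differed by 0.85 and 1.12 on Matrigel and by 1.79, 2.01 and 1.84 on collagen I in the same letter order. Of the 4 genes it varied least among the same-letter differences on collagen I. Adamts9 took both signs on collagen I, with -0.097, 0.40 and -0.35. On Matrigel it differed by -0.88 for A and -0.020 for S. Between the 2 Matrigel arrays Adamts1, Adamts5 and Adamts9 were each lower in the one of letter A, by 0.76, 1.07 and 0.79, while Adamts4 differed by 0.11.

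The arrays were much alike as a whole, with correlations across genes, which are not independent replicates, of 0.991 to 0.996 within a surface and 0.975 to 0.989 between surfaces. The means of 10 of 10 stellate and fibroblast markers were above the dim level (a log2 level of 4.25, under which 40% of genes lay) on every surface, with Des on Matrigel, at 4.85 and 4.83, not far above it. Their summed level was 14.70 to 14.80 on Matrigel, 14.91 to 15.18 on collagen I and 14.97 to 15.06 on plastic (log2 of the sum). Des, Col3a1 and Lum fell on Matrigel, with differences of -1.93, -0.93 and -2.43, and on collagen I Des was the 1 of the 10 that fell (-0.77). The unadjusted p was under 0.05 for 5 of the 10 on Matrigel (median -0.29) and for 3 on collagen I (median 0.064). Of all 14506 genes, 3258 on Matrigel and 2806 on collagen I had such a p when only the 2 compared groups were fitted. In the main fit 10.4% of all genes passed on Matrigel and 6.12% on collagen I. Acta2 differed by -1.23 on Matrigel (limma adjusted p = 0.0892) and by 0.35 on collagen I (adjusted p = 0.668), without passing. Markers of other pancreatic cells moved with the Matrigel comparison. Of 9 islet markers 6 rose on Matrigel (8 at an unadjusted p under 0.05, median difference of the list 2.05), with summed levels of 12.32 to 13.39 on Matrigel and 10.00 to 11.84 on plastic. Of 10 acinar markers 2 rose (5 at an unadjusted p under 0.05, median 0.55), with sums of 8.70 to 10.69 on Matrigel and 7.00 to 7.36 on plastic, and 5 of the 10 were dim on Matrigel. Of 10 macrophage markers 1, Itgam, rose, while 7 had an unadjusted p under 0.05 and the median difference was 1.11, with sums of 12.22 to 12.50 on Matrigel and 10.74 to 12.02 on plastic. Of 9 endothelial markers 1, Tie1, rose and 1, Egfl7, fell (3 at an unadjusted p under 0.05, median -0.045). Their sums were 8.46 to 8.48 on Matrigel and 8.12 to 8.42 on plastic. Of the 9, 5 were dim on Matrigel, 5 on collagen I and 6 on plastic, Pecam1, Cdh5 and Kdr among them on every surface. Tek, Esam and Egfl7 were dim on no surface, with means of 6.80, 6.60 and 5.94 on Matrigel. Of 7 duct and mesothelial markers 1, the mesothelial marker Wt1, fell and 0 rose by limma, with 3 at an unadjusted p under 0.05. Their summed level was 8.18 to 8.33 on Matrigel and 8.53 to 8.85 on plastic, yet the median difference of the list was 0.46, of the opposite sign. Their part in the ADAMTS differences on Matrigel was not tested, and in such bulk samples fewer cells of a type and less RNA per cell cannot be told apart. On collagen I limma called 0 of the islet, acinar, endothelial and macrophage markers. Its unadjusted p was under 0.05 for 1 of the macrophage markers and for 0 of the other 3 lists. The macrophage marker was Adgre1, which differed by -1.45 on collagen I (limma adjusted p = 0.093) and by 0.30 on Matrigel. Wt1 fell there too. The islet sums on collagen I were 10.92 to 12.08 and the macrophage sums 10.88 to 11.73.

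Of 15 further ADAMTS proteases, 7 had a row of their own, and these 7 did not fall together. On Matrigel 3 of them passed as higher and 0 as lower, beside 4.52% and 5.85% of all genes. On collagen I 3 passed as higher and 1, Adamts15, as lower, beside 2.95% and 3.17% of all genes. The median difference of the 7 was 0.016 on Matrigel and 0.40 on collagen I. Adamts12, which cuts the cartilage protein COMP, rose by 1.04 ± 0.11 on collagen I (log2, SE; limma adjusted p = 0.00107) and by 0.75 ± 0.12 on Matrigel (adjusted p = 0.00719). It had 9.54 and 9.23 on Matrigel, 9.74, 9.76 and 9.55 on collagen I, and 8.51, 8.85, 8.61 and 8.59 on plastic, with no overlap between either matrix and plastic. Without Matrigel replicate 1 its Matrigel call was lost (adjusted p = 0.0628). Adamts7, which also cuts COMP, differed by 0.98 ± 0.25 on Matrigel (limma adjusted p = 0.0401) and by 0.93 ± 0.22 on collagen I (adjusted p = 0.0418). Its calls were fragile. The Matrigel call was lost without any 1 of 7 of the 9 arrays, all but collagen replicates 1 and 3 (adjusted p up to 0.225), and the collagen I call without any 1 of 8, all but collagen replicate 3 (up to 0.150).

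Adamts15, the only further member of the proteoglycan-cutting branch with a row of its own, differed between the matrices in its mean. It had 6.55 and 8.09 on Matrigel, 5.91, 5.59 and 5.04 on collagen I, and 8.06, 7.27, 8.25 and 7.87 on plastic. All collagen I arrays lay below all plastic arrays, whereas the Matrigel arrays lay far apart and overlapped those on plastic. On collagen I it fell by 2.35 ± 0.38 (log2, SE; limma adjusted p = 0.00851). On Matrigel it differed by -0.54 ± 0.44 (adjusted p = 0.525). The difference between Matrigel and collagen I itself was 1.81 ± 0.46 and did not pass (adjusted p = 0.0853).

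Of the procollagen N-proteinases, which trim the ends of fibrillar procollagens, Adamts2 averaged 8.32 ± 0.09 on Matrigel (SD, n = 2), 8.01 ± 0.06 on collagen I (n = 3) and 8.31 ± 0.29 on plastic (n = 4) and passed in no comparison (limma adjusted p = 0.310 to 0.996). Adamts3, dim on plastic, was at least 0.37 higher on collagen I (limma adjusted p = 0.00331). It also passed on Matrigel (adjusted p = 0.0388), where both means were dim, and that call was lost without any 1 of 6 arrays, namely both Matrigel arrays, collagen replicate 3 and plastic replicates 1, 2 and 4 (up to 0.160). A second, dimmer row of Adamts3 had means of 3.36 on Matrigel, 4.09 on collagen I and 2.93 on plastic. Adamts14 was lower on Matrigel than on collagen I, with a difference of -0.65 ± 0.14 (limma adjusted p = 0.0474), a call lost without any 1 array but Matrigel replicate 2 (up to 0.137). Against plastic Adamts14 did not pass on either matrix (adjusted p = 0.288 on Matrigel and 0.0886 on collagen I). Adamts19 was dim on all 3 surfaces.

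The ADAMTS-like proteins have the ancillary repeats but no protease domain. Of 7 listed genes 3 had a row. Adamtsl3 rose on Matrigel by at least 0.025 above the dim level (limma adjusted p = 0.0119), which was lost without Matrigel replicate 1 (adjusted p = 0.0842). Adamtsl4, which binds fibrillin microfibrils, differed by -0.81 ± 0.24 on Matrigel (log2, SE; adjusted p = 0.0716) and by -0.72 ± 0.21 on collagen I (adjusted p = 0.0951). Adamtsl5 differed by -0.0098 on Matrigel and 0.034 on collagen I without passing.

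**Figure D3:**
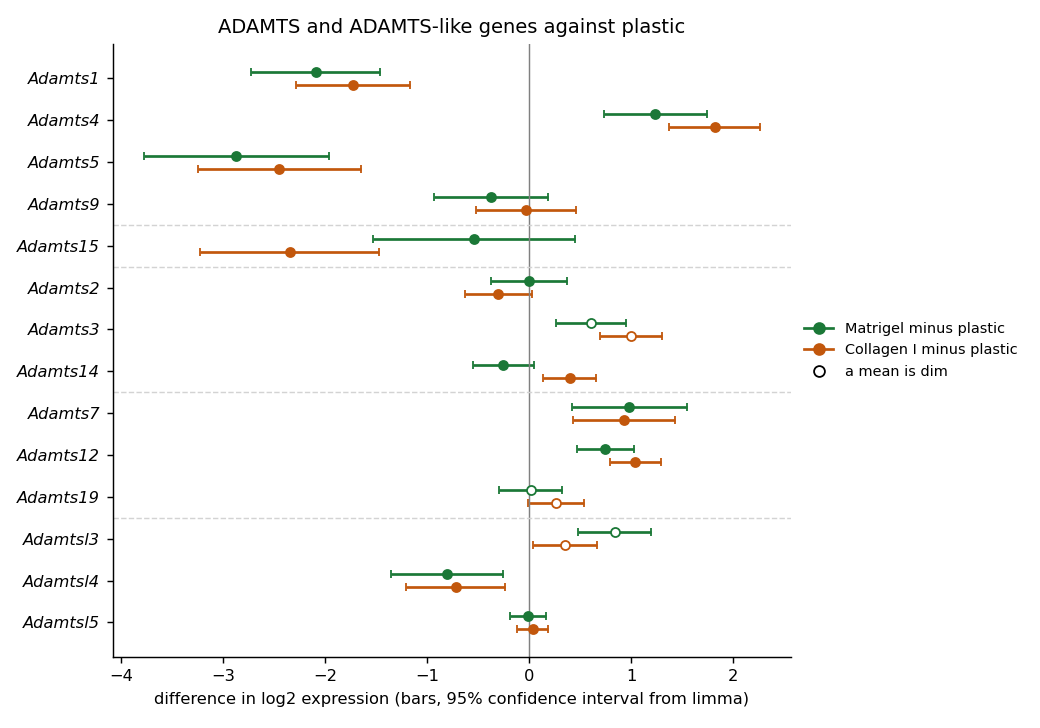
Differences in log2 expression against plastic for the 4 genes, then Adamts15, the procollagen N-proteinases, other ADAMTS proteases and the ADAMTS-like genes, with 95% intervals from limma and open points where a surface mean is dim. Adamts5 and Adamts1 lie lowest on Matrigel, Adamts15 lies beside Adamts5 on collagen I at -2.35, and Adamts4 lies farthest to the right on both matrices.

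Of the membrane-bound relatives, the ADAM proteases, 3 of 7 had a row. Adam17, the sheddase that releases TNF, rose on collagen I by 0.77 ± 0.15 (log2, SE; limma adjusted p = 0.0217) and differed by 0.62 ± 0.18 on Matrigel (adjusted p = 0.0613). Adam15 fell on collagen I by 0.67 ± 0.13 (limma adjusted p = 0.0198). Its level was identical, at 7.03, on both Matrigel arrays (SD 0) and on plastic replicate 4, which narrows the spread used here. The Adam17 call was lost without collagen replicate 1 or 3 or plastic replicate 2 or 3 (adjusted p up to 0.0838), and the Adam15 call without collagen replicate 1 or 2 or plastic replicate 1, 2 or 3 (up to 0.0692). Adam9 passed in no comparison, with a difference of 0.28 ± 0.22 on Matrigel and -0.17 ± 0.19 on collagen I.

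Of 18 listed substrates and their partners 16 had a row. Of these 1 rose and 1 fell on Matrigel, where 10.4% of all genes passed. On collagen I, where 6.12% of all genes passed, 2 rose and 1 fell. Vcan, which encodes versican, the main substrate of this branch outside cartilage, had 11.69 and 11.89 on Matrigel, 11.59, 11.86 and 11.58 on collagen I, and 11.17 to 11.19 on all 4 plastic arrays. It rose by 0.60 ± 0.10 on Matrigel (log2, SE; limma adjusted p = 0.00645) and by 0.49 ± 0.09 on collagen I (adjusted p = 0.0118). Acan, the aggrecan gene, was dim on every surface, with means of 3.23, 3.15 and 3.21 on Matrigel, collagen I and plastic. So were Bcan and Ncan, the proteoglycan genes brevican and neurocan of the brain. Sema3c, a guidance signal that ADAMTS1 can cut, fell by 1.16 ± 0.22 on Matrigel (adjusted p = 0.0134) and by 1.19 ± 0.20 on collagen I (adjusted p = 0.00893). Its Matrigel call was lost without either Matrigel array (adjusted p = 0.0624 and 0.0804). Hapln3, which links versican to hyaluronan, was dim on all surfaces although it passed on collagen I (adjusted p = 0.0180). That call was lost without collagen replicate 2 or 3 (up to 0.0732). Hapln3 also passed as lower on Matrigel than on collagen I (adjusted p = 0.0425), a call lost without any 1 array but Matrigel replicate 2 (up to 0.147). Nid2, a basement membrane nidogen, passed in no comparison (adjusted p = 0.186 to 0.497).

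Among 6 inhibitors and clearance genes, Lrp1, the endocytic receptor that removes ADAMTS4 and ADAMTS5 from the cell surroundings, rose on Matrigel by 0.88 ± 0.17 (log2, SE; limma adjusted p = 0.0125), a call lost without Matrigel replicate 2 (adjusted p = 0.0780). It had 11.21 and 11.69 on Matrigel, against 10.46, 10.45, 10.88 and 10.49 on plastic. On collagen I 0 of the 6 passed by limma, beside 6.12% of all genes, and 2 had an unadjusted p under 0.05. In a fit of only collagen I and plastic, 2806 of the 14506 genes had such a p. Lrp1 differed by 0.39 ± 0.15 on collagen I (limma adjusted p = 0.183). Timp3, the main tissue inhibitor of ADAMTS4 and ADAMTS5, was dim on every surface, with means of 3.30 on Matrigel, 3.42 on collagen I and 3.20 on plastic. Timp1 and Timp2 differed by -0.52 ± 0.20 and -0.13 ± 0.16 on Matrigel and by -0.39 ± 0.18 and -0.47 ± 0.14 on collagen I, none of which passed (adjusted p = 0.102 to 0.715). Timp4 was dim.

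Furin, the convertase gene, rose on both matrices. It had 10.20 and 9.82 on Matrigel, 9.79, 9.55 and 9.96 on collagen I, and 9.08, 9.11, 9.07 and 9.17 on plastic, a rise of 0.90 ± 0.13 on Matrigel (log2, SE; limma adjusted p = 0.00409) and of 0.66 ± 0.12 on collagen I (adjusted p = 0.0118). Pcsk6, the convertase also called PACE4, fell by 0.95 ± 0.12 on collagen I (adjusted p = 0.00294) and differed by -0.49 ± 0.14 on Matrigel (adjusted p = 0.0611). Pcsk5 and Pcsk7, the other 2 of the 4 listed, passed in no comparison.

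Of 5 cytokines that raise ADAMTS4 or ADAMTS5 in joint cells, 1 rose on Matrigel and 2 on collagen I. Over all genes 4.52% passed as higher on Matrigel and 2.95% on collagen I. Tgfb1 rose by 2.41 ± 0.32 on collagen I (log2, SE; limma adjusted p = 0.00313) and by 1.76 ± 0.36 on Matrigel (adjusted p = 0.0169). Without Matrigel replicate 1 the Matrigel call was lost (adjusted p = 0.135). Il1a, which encodes interleukin 1 alpha, had 6.74 and 6.78 on Matrigel, 8.14, 8.38 and 9.28 on collagen I, and 7.03, 6.23, 7.27 and 6.44 on plastic. It rose by 1.86 ± 0.32 on collagen I (adjusted p = 0.0105), differed by 0.016 ± 0.36 on Matrigel (adjusted p = 0.989), and was lower on Matrigel than on collagen I, with a difference of -1.84 ± 0.38 (adjusted p = 0.0448). The last of these calls was lost without any 1 array but plastic replicate 3 (up to 0.140). Il1b, Tnf and Osm passed in no comparison.

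**Figure D4:**
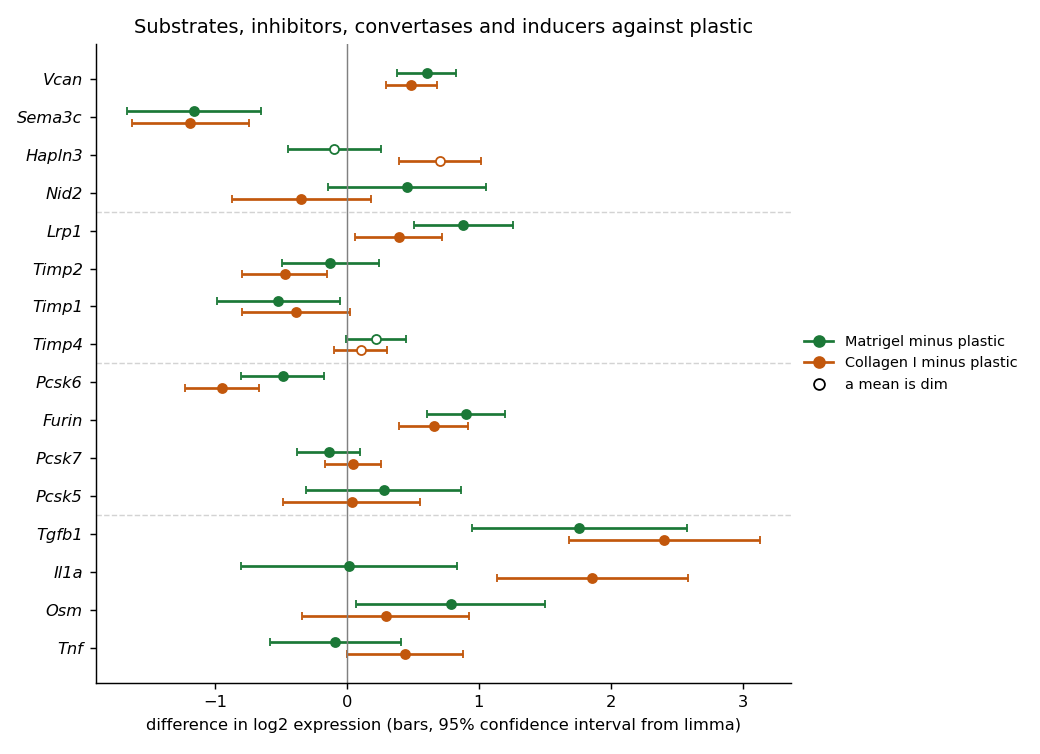
Differences in log2 expression against plastic for, from top to bottom, substrates and partners, inhibitors and clearance, convertases and inducing cytokines, with 95% intervals from limma and open points where a surface mean is dim. Vcan and Furin lie above 0 on both matrices, Sema3c lies below 0 on both, and Tgfb1 lies farthest to the right, at 2.41 on collagen I.

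In the RefSeq annotation Adamts1 and Adamts5 are next to each other on rat chromosome 11, with 0 annotated genes between them. Adamts4 is on chromosome 13 and Adamts9 on chromosome 4. The 3 protein-coding genes on each side of the Adamts1 and Adamts5 pair were chosen for description after the pair's values were seen. Of these 6 genes, limma called 0 against plastic on Matrigel and 0 on collagen I, with an unadjusted p under 0.05 in 3 of the 12 tests, and their differences lay between -0.40 and 0.38. App, which encodes the amyloid precursor protein, differed by 0.38 ± 0.20 on Matrigel and 0.093 ± 0.17 on collagen I (log2, SE; adjusted p = 0.286 and 0.835). Cyyr1, next to Adamts1, was dim. N6amt1, next to Adamts5, differed by -0.40 ± 0.16 on Matrigel (adjusted p = 0.155) and by -0.023 ± 0.14 on collagen I (adjusted p = 0.955).

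**Figure D5:**
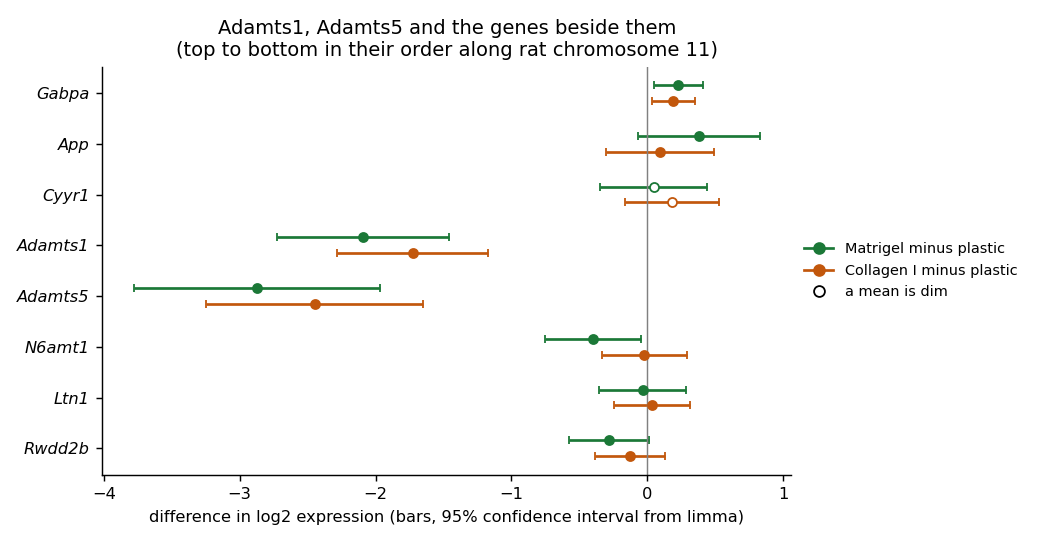
Differences in log2 expression against plastic for Adamts1, Adamts5 and 3 protein-coding genes on each side, in gene order from top to bottom, with 95% intervals from limma and open points where a surface mean is dim. Adamts1 and Adamts5 lie at -1.73 or below on both matrices, and the 6 flanking genes between -0.40 and 0.38.

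The genes whose levels followed each member most closely over the 9 arrays were ranked by Pearson's r among 829 genes that were not dim and had an SD of at least 0.5. The arrays fall into 3 surfaces, so r is given only as a ranking. Adamts1 was nearest to Amotl2, a junction protein gene (r = 0.990), to the growth factor gene Fgf18 (r = 0.982) and to Rnd1 (r = 0.977). Amotl2 averaged 7.03 on Matrigel, 7.25 on collagen I and 8.56 on plastic. Adamts5 was nearest to the retinal dehydrogenase gene Aldh1a2 (r = 0.985), to Rab30 (r = 0.984) and to the oncostatin M receptor gene Osmr (r = 0.984), which averaged 9.65 on Matrigel, 9.72 on collagen I and 10.60 on plastic. Adamts4 was nearest to Mmp14, the membrane-type collagenase gene (r = 0.974), to Arrdc3 (r = 0.967) and to Zmynd15 (r = 0.967). Mmp14 averaged 11.34 on Matrigel, 11.93 on collagen I and 10.64 on plastic, the same order of surfaces as Adamts4. Adamts9 was nearest to Tcf21, a transcription factor gene of fibroblasts (r = 0.927), with Kcne4 (r = 0.858) and Ddah2 (r = 0.847) farther off.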

How the data were processed

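The log2 expression values were deposited by the authors, and the submitters' processing notes name RMA, which corrects background, quantile-normalizes and summarises probe sets. Its version and the genome build were not given in the sources used here. Of 29215 entries 15310 were paired with 1 gene symbol, 323 with several and 13582 with none. The row with the highest mean was kept per gene, which left 14506 genes. Of these, 8192 have identical values on at least 2 arrays, but 0 of the 4 members.

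All 9 arrays entered 1 linear model of surface in limma (3.58.1, under R 4.3.3), followed by empirical Bayes moderation and Benjamini-Hochberg adjustment over all genes in each of the 3 comparisons. Precision is limited by the number of arrays. In simulated arrays of the same group sizes with normal noise, this model recovered 81% of genes changed by 1 (log2) between Matrigel and plastic, 88.5% between collagen I and plastic and 82% between Matrigel and collagen I, of 200 changed among 14506 genes. The noise was drawn separately for each gene, so these shares need not hold for the real arrays. A mean under the 40th percentile of gene means (4.25) was called dim. Differences with 1 dim mean are given as bounds, with each array of the dim group raised to at least that level.

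The members and gene lists were chosen with earlier results of these data known. The text names the members, up to 4 genes of each list with the smallest p in any comparison, and the 3 genes nearest each member by Pearson's r; the other listed genes and neighbours named were chosen after their values were seen. Deviations from group means were correlated across genes between arrays sharing a title letter. Collagen I and plastic gave 0.196 (letter A), 0.234 (P) and 0.269 (Z). The collagen I array of letter A reached 0.243 with the plastic array of letter S, above its same-letter value, but -0.224 and -0.243 with those of P and Z. The collagen I arrays of letters P and Z gave -0.186 to 0.009 with plastic arrays of other letters, below their same-letter values. Matrigel and plastic gave -0.131 (A) and 0.406 (S), but the deviations of 2 Matrigel arrays mirror each other and are not separate readings. The labels do not say what the letters mark, so they were not established as pairs, and the main model left them out. Alternatives shifted arrays to a common median, repeated the quantile normalization, dropped dim genes, fitted only the 2 compared groups, used robust moderation with a trend, weighted arrays, added title letter as a block, or omitted single arrays.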

Additional observations from a re-analysis of the deposited data

Results flagged for a closer look

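Of 71 genes screened on the 4 plastic arrays, 6 had a single array far from the other 3, with a gap to the nearest array beyond Dixon's critical value as a share of the whole range. None of the 4 members was among them, and chance flags about 1 in 20 such groups where values are normally spread and not tied. For Lrp1, at 10.46, 10.45, 10.88 and 10.49, the gap of plastic replicate 3 was 0.909 of the range. For Comp, the cartilage protein gene, with levels of 4.55 to 4.60, it was 0.916. The Comp level was identical, at 4.56, on plastic replicates 2 and 4 and on both Matrigel arrays, so this flag rests on tied values. Plastic replicate 2 stood apart for the other 4 genes. It was low for Lum (8.97, gap 0.846), Wt1 (8.06, gap 0.892) and Cyyr1 (3.17, gap 0.957), and high for N6amt1 (gap 0.968).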

How the results depend on the processing

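Of 192 values of the 4 members, from 12 differences under 16 alternatives, 180 kept their direction and side of the threshold. The differences of Adamts1 and Adamts5 against plastic did so under all 16 on both matrices, with adjusted p up to 0.0348, and those of Adamts4 on collagen I with adjusted p up to 0.00820. Leaving out each array in turn gave 1.11 to 1.35 for Adamts4 between Matrigel and plastic, past the threshold except without either Matrigel array. It gave -0.77 to 0.028 for Adamts9 between Matrigel and plastic, -0.21 to 0.18 between collagen I and plastic, and -0.74 to 0.057 between Matrigel and collagen I. Between Matrigel and collagen I it gave -0.75 to 0.015 for Adamts1 and -0.96 to 0.11 for Adamts5. Adamts9 on collagen I against plastic turned to 0.0079 with re-centred arrays, 0.065 with array weights and 0.061 with the letter as a replicate block. With that block Adamts4 differed by -0.90 between Matrigel and collagen I and passed (adjusted p = 0.0493), although these groups share only letter A; the block changed no other call of a member. The genes called numbered 1504 between Matrigel and plastic, 888 between collagen I and plastic and 387 between Matrigel and collagen I, and 759 to 1461, 552 to 870 and 68 to 352 with each array left out. The first fell by over 1.5 times without Matrigel replicate 1 (759) or plastic replicate 1 (989), and the second without plastic replicate 1 (552) or collagen replicate 2 (555), and the third without any 1 array but plastic replicate 3 (68 to 255). Between Matrigel and collagen I, 257 were called with array weights and 66 with the replicate block. With only these 2 groups in the fit limma called 0 (2094 at an unadjusted p under 0.05), where fewer arrays give the spread. The replicate block gave 1504 calls between Matrigel and plastic and 1072 between collagen I and plastic. Of 25 calls of other named genes 11 held under every alternative; besides single arrays, Adamts3 on Matrigel and Adam15 on collagen I did not pass with the replicate block (adjusted p = 0.0642 and 0.0692), Adamts3 and Adamts7 on Matrigel with array weights (0.0706 and 0.0550), and Adamts7 on collagen I with only 2 groups (0.0602). Between Matrigel and collagen I, Adamts14, Hapln3 and Il1a did not pass with only 2 groups (0.227, 0.169 and 0.163), array weights (0.0537, 0.0719 and 0.0723) or the replicate block (0.109, 0.0698 and 0.108), nor Adamts14 with robust moderation and a trend (0.0507). Each member had 1 entry, so trying another gave no value. The cause of these changes was not tested. In the simulated arrays 81% to 88.5% of changes of 1 (log2) were recovered, so differences of that size or smaller can be missed. Noise there was independent between genes and 200 genes changed, so these shares need not hold for the real arrays.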
